A study of Mus musculus with 32 samples.

Results

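Ube2c, Cdc20 and Kif23, genes that act in mitosis, and Cdkn1a, an inhibitor of the cell cycle, were followed in mouse liver RNA. They were taken by name and are 4 of the 533 different genes in 2 deposited tables, 1 per experiment. Table T lists 306 genes, among them Ube2c, Cdc20 and Kif23, and table P lists 242, among them Kif23 and Cdkn1a. Ube2c and Cdc20 in experiment P, and Cdkn1a in experiment T, were not analysed here.

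The study gave C57BL/6J mice sodium oxybate (SXB), a narcolepsy drug that delivers gamma-hydroxybutyrate, or its vehicle, and asked how it acts on body weight in developing and established obesity. The labels number T as experiment 1 and P as experiment 2, and do not say which of them was the model of developing obesity. Each experiment holds 8 liver libraries labelled vehicle and 8 labelled SXB, 32 in all. Age, sex, diet and dose of these groups are not given in the labels, nor that each library came from its own animal, so a p-value here covers library-to-library spread, which may be technical.

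Each table holds only genes that the authors selected on these same libraries, with a log2 fold change of at least 1 in size and an unadjusted p below 0.05, so the presence of a gene in a table is no independent evidence. Values are the authors' normalised expression values, which are rounded to 0.01 and lack a stated unit, and depth is unknown. In T, vehicle library 16 and SXB library 18 are each placed in the file among the columns of the opposite treatment, and libraries 1 to 4 (1 vehicle, 3 SXB) hold 486.43 to 6421.52 of the mitochondrial gene mt-Atp6 against at most 44.84 elsewhere. In P, vehicle libraries 33, 34 and 35 stand apart from the other vehicle libraries in the acute phase genes Orm2 and Saa3. SXB library 25 has a sum of these genes above that of library 35, 184.2 against 164.1. Values of the members are given with and without libraries 16 and 18 and libraries 1 to 4 in T, and vehicle libraries 33, 34 and 35 in P. Of 15 hepatocyte markers the tables list only Serpina1e, in T, where its values lay between 956 and 14480, so this list could check the tissue label no further.

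Cells leave mitosis when the anaphase-promoting complex, a ubiquitin ligase, marks securin and cyclin B for destruction. Cdc20 is the activator that brings substrates to this complex, Ube2c is the ubiquitin-conjugating enzyme that starts the chains on them, and Kif23 is the kinesin of centralspindlin, which bundles the midzone microtubules before the daughter cells separate. Cdkn1a encodes p21, which binds and inhibits cyclin-dependent kinases and is a textbook target of p53. Adult hepatocytes seldom divide, and transcripts of mitotic genes in liver are low and can come from any dividing cell type. In bulk RNA, fewer cells of a type and less RNA per cell cannot be told apart.

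Mitotic genes are known to be controlled through the cell cycle homology region (CHR), an element near their start sites. The promoters of the members are shown because the mitotic genes share this element while Cdkn1a does not. Each run below goes from 110 bases before to 20 bases after the annotated RefSeq start (GRCm38.p6), 5′ to 3′ on the strand of the gene. Capitals mark TTTGAA or its reverse complement TTCAAA in the mitotic genes, and matches to the p53 consensus decamer in Cdkn1a.
Ube2c, chr2:164769819-164769948, plus strand: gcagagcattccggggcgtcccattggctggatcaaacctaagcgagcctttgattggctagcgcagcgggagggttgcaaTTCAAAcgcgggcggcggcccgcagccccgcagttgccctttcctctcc
Cdc20, chr4:118437324-118437453, minus strand: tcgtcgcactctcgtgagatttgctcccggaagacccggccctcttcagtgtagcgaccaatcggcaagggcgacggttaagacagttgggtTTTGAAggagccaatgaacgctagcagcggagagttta
Kif23, chr9:61946780-61946909, minus strand: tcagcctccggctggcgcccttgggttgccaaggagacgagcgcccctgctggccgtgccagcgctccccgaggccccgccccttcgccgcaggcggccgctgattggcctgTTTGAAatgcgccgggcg
Cdkn1a, chr17:29090869-29090998, plus strand: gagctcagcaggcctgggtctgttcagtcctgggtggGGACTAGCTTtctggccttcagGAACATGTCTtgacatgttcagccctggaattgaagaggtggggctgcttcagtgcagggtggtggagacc

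The CHR letters were searched on both strands in windows from 250 bases before to 50 after each annotated start. They occurred 1 time in each mitotic member, from base -29 in Ube2c, from base -18 in Cdc20 and from base 3 in Kif23, counted from the start. The CCAAT box, a site known to bind NF-Y and to accompany the CHR, was present as CCAAT or its reverse complement 6 times in Ube2c, 2 times in Cdc20 and 1 time in Kif23, with 2 of the matches in Ube2c overlapping each other. Among all 32851 windows, 17.9% held the CHR letters, 37.4% held CCAAT and 6.95% held both. Neither was found in the windows of the 2 annotated Cdkn1a starts. The p53 decamer matched 2 times in the upstream Cdkn1a window, 0 times in the other and 1 time in Kif23, from base -246, against 8.36% of all windows. These matches describe letters in a window and say nothing about binding in these livers.

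In the GRCm38 annotation Ube2c lies on chromosome 2 from 164769898 to 164778822, Cdc20 on chromosome 4 from 118432901 to 118437352, Kif23 on chromosome 9 from 61915905 to 61946774 and Cdkn1a on chromosome 17 from 29090976 to 29100727. Ube2c overlaps Tnnc2, Cdc20 overlaps Elovl1 and Cdkn1a overlaps AC167363.2, each on the opposite strand. No source used here says whether the authors' counting used strand, so reads of these partners could be shared.

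In experiment T, Ube2c was the mitotic member with the most even difference, lower with SXB in most libraries, but neither it nor Cdc20 or Kif23 passed the test. By limma on log2(value + 1), 0 of 306 genes passed an adjusted p of 0.05 under the labels (0%), with 90 (29.4%) at an unadjusted p below 0.05, and the exact permutation test passed 0, with 97 (31.7%) unadjusted. In the authors' deposited tables an adjusted p below 0.05 is given to 43 of 306 genes in T (14.1%) and to 50 of 242 in P (20.7%), and to no member.

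Ube2c, the conjugating enzyme, ranged in the vehicle group from 0.33 through a median of 1.00 to 2.58, with a mean of 1.18 ± 0.706 (SD, n = 8). In the SXB group it ranged from 0.42 through a median of 0.63 to 1.67, with a mean of 0.769 ± 0.423 (n = 8). The groups overlapped: vehicle library 14 held the lowest value of all, SXB library 18 held the highest SXB value, and 6 of 8 SXB libraries lay below the vehicle median. The means differed 1.54-fold, and the log2 difference, SXB minus vehicle, was -0.27 (SE 0.19, limma adjusted p = 0.272; exact permutation test, two-sided, unadjusted p = 0.175).

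Ube2c differed more once libraries 16 and 18 were left out. With 0.68, vehicle library 16 sat below the vehicle median, and with 1.67, SXB library 18 sat above every other SXB library. Without these libraries the means were 1.25 ± 0.731 (n = 7) and 0.64 ± 0.232 (n = 7), 1.96-fold lower with SXB, and each of the 7 SXB values was under the median of the vehicle group. The log2 difference was then -0.41 (SE 0.18), with a limma unadjusted p of 0.0430 and an adjusted p of 0.0969, and did not pass. In the same 14 libraries 56 of 306 genes passed (18.3%) and 147 (48%) had an unadjusted p below 0.05, so an unadjusted p of this size was common in the table. It passed in 1 of 14 further omissions, that of vehicle library 14 (-0.52, limma adjusted p = 0.0371). Without libraries 1 to 4, but with 16 and 18 kept, the means of Ube2c differed 1.33-fold and the log2 difference was -0.20 (SE 0.20, limma adjusted p = 0.616). Without libraries 1 to 4, 16 and 18 (n = 6 and 4) they differed 2.04-fold. The log2 difference was then -0.40 (SE 0.18, limma adjusted p = 0.165) and did not pass, while 4 of 306 genes did (1.31%).

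The authors' deposited table gives Ube2c a log2 fold change of -1.03 and an adjusted p of 0.0769. The listed values gave a log2 ratio of means of -0.62 under the labels and of -1.02 with the groups of libraries 16 and 18 exchanged. With that exchange the limma log2 difference was -0.44 (SE 0.16, limma adjusted p = 0.0513), each of the 8 SXB values was under the vehicle median, and 90 of 306 genes passed (29.4%).

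Cdc20, the activator of the ligase, showed no steady direction. It ranged in the vehicle group from 0.03 through a median of 0.16 to 0.28 and in the SXB group from 0.03 through a median of 0.18 to 0.49. The groups overlapped almost fully, and SXB library 18 again held the highest value. The means were 0.166 ± 0.0891 (SD, n = 8) and 0.19 ± 0.147 (n = 8), and the log2 difference was 0.02 (SE 0.07, limma adjusted p = 0.778). Without libraries 16 and 18 the log2 difference was -0.04 (SE 0.06, limma adjusted p = 0.497), and with their groups exchanged it was -0.10 (SE 0.07, limma adjusted p = 0.185). Without libraries 1 to 4 it was 0.03 (SE 0.09, limma adjusted p = 0.879). The authors' deposited table gives a log2 fold change of -1.06 and an adjusted p of 0.443. From the listed values the log2 ratio of means was 0.19 under the labels and -0.69 with the exchange. Neither arrangement of the listed values gave the deposited fold change of Cdc20, and the exchange came nearer.

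Kif23, the midzone kinesin, was higher in a single vehicle library. It ranged in the vehicle group from 0.03 through a median of 0.18 to 1.82, and in the SXB group from 0.02 through a median of 0.06 to 0.38. Vehicle library 4 held 1.82 and the next vehicle library, 15, held 0.57, while 5 of 8 SXB libraries lay below the vehicle median and the groups overlapped. The means were 0.403 ± 0.599 (SD, n = 8) and 0.141 ± 0.148 (n = 8), 2.85-fold lower with SXB, or 1.42-fold without library 4. The log2 difference was -0.22 (SE 0.18, limma adjusted p = 0.319), -0.07 (SE 0.10) without library 4, and 0.01 (SE 0.12) without libraries 1 to 4, where 0 of 306 genes passed (0%).

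Library 4 is also the highest vehicle library of Ube2c, with 2.58, and of mt-Atp6, with 6421.52. Without libraries 16 and 18 the Kif23 means differed 4.2-fold and the log2 difference was -0.31 (SE 0.19, limma adjusted p = 0.170), and without library 4 as well it was 2.07-fold and -0.13 (SE 0.10). The authors' deposited table gives Kif23 in T a log2 fold change of -1.29 and an adjusted p of 0.401. The listed values gave a log2 ratio of means of -1.51 under the labels and of -2.11 with the groups of libraries 16 and 18 exchanged. For Ube2c and Cdc20 the exchange came nearer the deposited value, and for Kif23 the labelled arrangement did. Whether the difference of libraries 1 to 4 in mitochondrial values plays a part in these values was not tested.

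**Figure D1:**
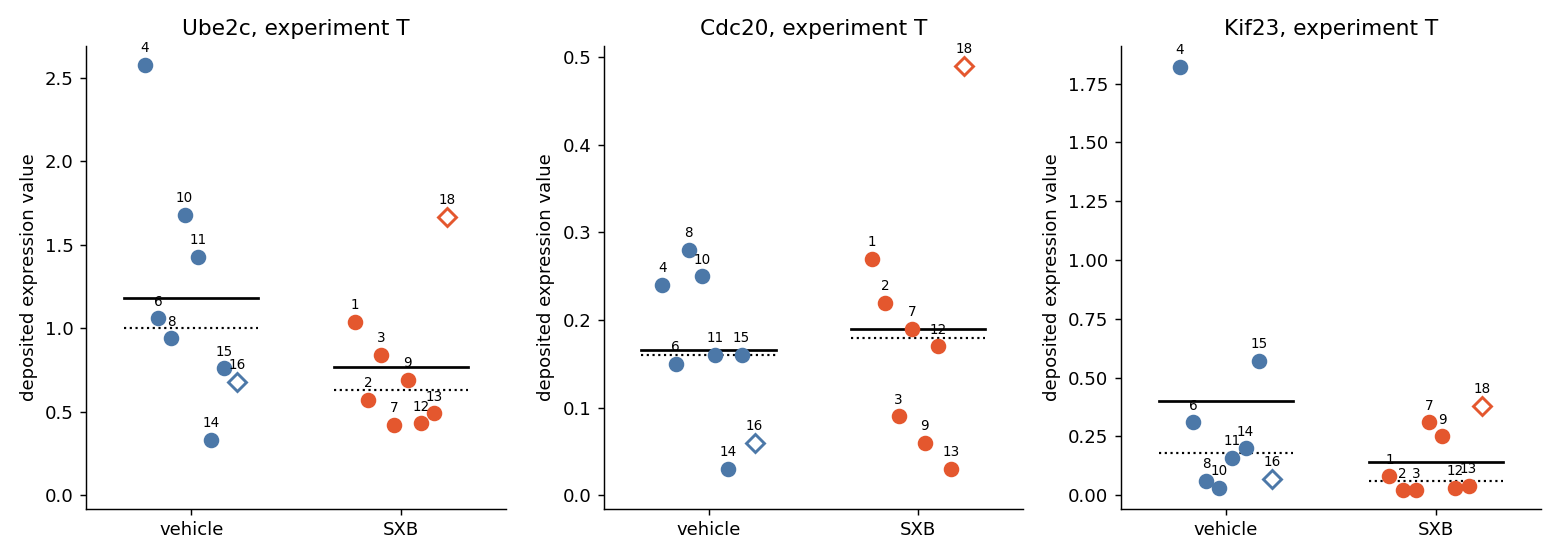
Deposited expression values of Ube2c, Cdc20 and Kif23 in experiment T (linear vertical axis, unit not stated), 1 point per library with its number. Solid lines are group means and dotted lines medians, and open diamonds mark libraries 16 and 18. For Ube2c, SXB library 18 with 1.67 stands above the other SXB libraries, and for Kif23 vehicle library 4 with 1.82 lifts the vehicle mean.

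The mitotic members were only partly alike from library to library. Over the 16 libraries of T, Ube2c and Cdc20 had a Pearson r of 0.59 (permutation p = 0.0151, adjusted p = 0.038 over 3 pairs) and a Spearman rho of 0.56 (permutation p = 0.0274, adjusted p = 0.0821). Without the libraries farthest from the median of Ube2c, 4 and 10, r was 0.64, and without libraries 1 to 4 it was 0.68. The rho of Ube2c and Cdc20 fell to 0.47 without libraries 16 and 18 and to 0.51 without library 4. Ube2c and Kif23 had an r of 0.57 (permutation p = 0.0254, adjusted p = 0.038) and a rho of 0.26 (permutation p = 0.324, adjusted p = 0.486). That r was 0.25 without libraries 4 and 10 and 0.08 without libraries 1 to 4. Library 4 was the highest of all in both genes, with 2.58 of Ube2c and 1.82 of Kif23. Library 10 was high only in Ube2c, with 1.68 against 0.03 of Kif23. Without library 4 alone rho was 0.10. Cdc20 and Kif23 had an r of 0.22 (permutation p = 0.397, adjusted p = 0.397) and a rho of 0.08 (permutation p = 0.753, adjusted p = 0.753), with r at 0.19 without libraries 14 and 18 and 0.22 without libraries 1 to 4.

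Of a list of 71 genes of mitosis, table T holds 4, the members and Pbk, a mitotic kinase. None passed, 3 were lower and 1 higher with SXB, and their median log2 difference was -0.14 beside -0.02 over all 306 genes. Pbk was listed at 0 in 1 vehicle and 4 SXB libraries and reached 0.31 in vehicle library 10 and 0.23 in SXB library 12. Its log2 difference was -0.05 (SE 0.06, limma adjusted p = 0.477).

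Of 37 genes of DNA replication, table T holds E2f7, a repressor of the E2F family, with means of 0.219 ± 0.123 and 0.228 ± 0.147 (SD, n = 8 each). Its log2 difference was 0.01 (SE 0.08, limma adjusted p = 0.929), while the authors' deposited table gives a log2 fold change of 1.30. It lay near 0 in every arrangement tried, from -0.04 to 0.05.

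Among 15 cyclins, kinases and inhibitors of the G1 phase, table T holds Myc, a transcription factor that drives cell growth. Myc ranged from 0.51 through a median of 1.35 to 4.27 with vehicle and from 0.66 through a median of 5.91 to 40.66 with SXB, with overlapping groups. Its log2 difference was 1.41 (SE 0.70, limma adjusted p = 0.191) and 1.63 (SE 0.73, limma adjusted p = 0.0969) without libraries 16 and 18. SXB libraries 3 and 1 held the highest values of Myc, 40.66 and 31.02, and without libraries 1 to 4 its log2 difference was 0.95 (SE 0.61, limma adjusted p = 0.558).

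Among 32 targets of p53, table T holds Gdf15, a secreted stress hormone. Gdf15 ranged from 2.48 through a median of 14.3 to 48.32 with vehicle and from 1.03 through a median of 3.53 to 38.91 with SXB. The highest SXB value was in library 18, and the groups overlapped. Its log2 difference of -1.31 (SE 0.66, limma adjusted p = 0.194) did not pass under the labels. Without libraries 16 and 18 Gdf15 was lower by 1.88 on the log2 scale (SE 0.59, limma adjusted p = 0.0428), where 56 of 306 genes passed (18.3%). The exact permutation test did not pass it in the same 14 libraries (adjusted p = 0.0537), and the limma call was kept in 3 of 14 further omissions, those of library 6, 7 or 14, with an adjusted p of up to 0.0852 in the others. With the groups of libraries 16 and 18 exchanged it was -1.97 (SE 0.54, limma adjusted p = 0.0174, exact permutation adjusted p = 0.0257). In that arrangement 90 of 306 genes passed limma (29.4%). Without libraries 1 to 4 its log2 difference was -0.47 (SE 0.74, limma adjusted p = 0.741). The authors' deposited values for Gdf15 are a log2 fold change of -2.16 and an adjusted p of 0.0351. The log2 ratio of listed means was -1.14 under the labels and -2.32 with the exchange.

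In experiment P, Cdkn1a was high in 3 vehicle libraries, and no other library of either group reached their values. Vehicle library 34 held 39.43, library 33 held 6.03 and library 35 held 3.91. The 5 remaining vehicle libraries lay between 0.39 and 0.67, and the 8 SXB libraries between 0.52 and 1.71 with a median of 1.19. The SXB group thus lay below the high vehicle libraries and overlapped the low ones, with SXB libraries 24 (0.53) and 30 (0.52) below 3 of those 5 and 6 of 8 SXB libraries above the vehicle median of 0.61.

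The mean and the median of Cdkn1a pointed in opposite directions. The means were 6.49 ± 13.5 with vehicle and 1.14 ± 0.515 with SXB (SD, n = 8 each), 5.71-fold lower with SXB, while the SXB median was 1.94 times the vehicle median. The log2 difference was -0.62 (SE 0.60, limma adjusted p = 0.334; exact permutation test, two-sided, unadjusted p = 0.392), so Cdkn1a did not pass, in a table where 94 of 242 genes did (38.8%), 84 of them lower with SXB (34.7%). Without library 34 the means differed 1.57-fold and the log2 difference was -0.10 (SE 0.35, limma adjusted p = 0.800).

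Without libraries 33, 34 and 35 the sign turned, with means of 0.514 ± 0.115 (n = 5) and 1.14 ± 0.515 (n = 8), a ratio of SXB to vehicle of 2.21. That difference of 0.46 (SE 0.16) had a limma unadjusted p of 0.0142 and an adjusted p of 0.0544 and did not pass, while 54 of 242 genes did (22.3%) and 102 (42.1%) had an unadjusted p below 0.05. These libraries were left out because they are high in acute phase genes, and only from the vehicle group, which favours a turn to higher values for any gene that is high in them, so this value is no evidence of a rise. The authors' deposited table gives Cdkn1a a log2 fold change of -2.48 and an adjusted p of 0.142, and the listed values gave -2.51 for the log2 ratio of means.

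**Figure D2:**
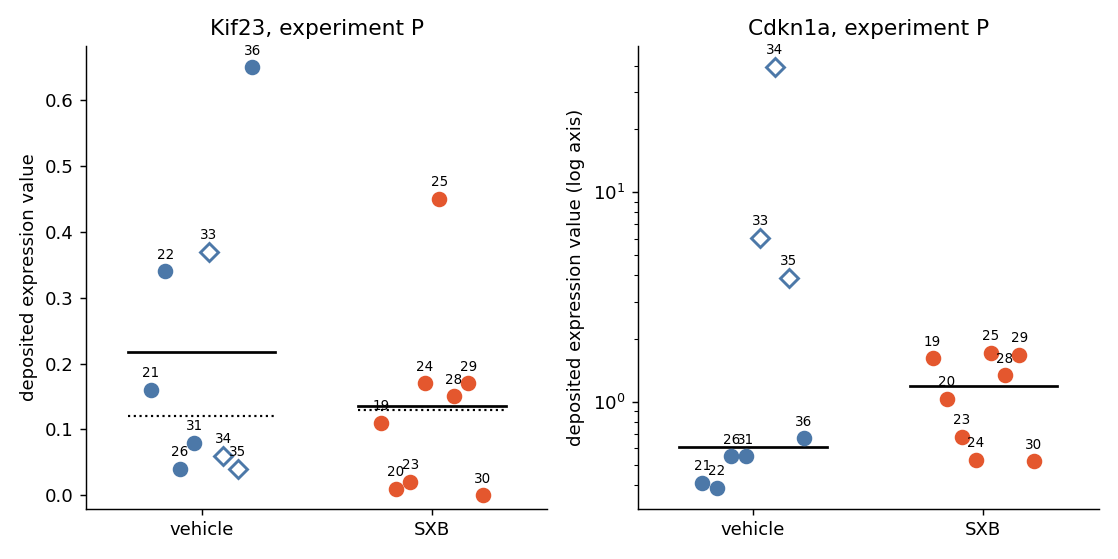
Deposited expression values in experiment P, 1 point per library with its number: Kif23 on a linear axis with group means (solid) and medians (dotted), and Cdkn1a on a log axis with group medians (solid). Open diamonds mark vehicle libraries 33, 34 and 35, which hold 6.03, 39.43 and 3.91 of Cdkn1a and 0.37, 0.06 and 0.04 of Kif23.

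The libraries with high Cdkn1a were also high in acute phase genes. Orm2 (orosomucoid) and Saa3 (a serum amyloid A), the 2 listed genes of 22 in the acute phase list, summed to 1162 in library 34, 621.8 in library 33 and 164.1 in library 35, and to between 11.5 and 17.8 in the 5 other vehicle libraries. In the SXB group the sum was highest in libraries 25 (184.2), 28 (100.7) and 19 (74.7), which held 1.71, 1.34 and 1.61 of Cdkn1a, among the 4 highest SXB values together with library 29 (1.68 of Cdkn1a, sum 19.5). SXB library 25, with an acute phase sum above that of vehicle library 35, held less Cdkn1a than that library, 1.71 against 3.91. The neutrophil markers S100a9 and Ngp, the 2 listed of 8, summed to 7.43, 7.64 and 12.14 in libraries 33, 34 and 35, to between 0.66 and 1.79 in the other vehicle libraries and to between 0.46 and 4.52 in the SXB group. Asns, an amino acid synthesis enzyme induced by stress, was 23.61 in library 34, with the next vehicle library at 3.36. None of Orm2, Saa3, S100a9, Ngp and Asns passed, in a table where 94 of 242 genes did (38.8%). The part of these differences in the values of Cdkn1a was not tested.

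**Figure D3:**
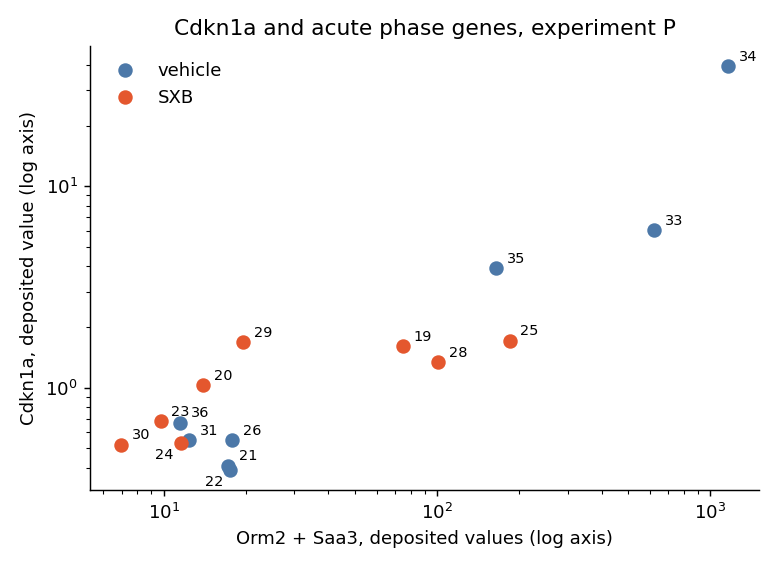
Cdkn1a against the sum of Orm2 and Saa3 in the 16 libraries of experiment P, both as deposited values on log axes, 1 point per library with its number. Vehicle libraries 33, 34 and 35 lie at the upper right, and SXB libraries 19, 25 and 28 have sums from 74.7 to 184.2 with Cdkn1a between 1.34 and 1.71.

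Genes with the pattern most like Cdkn1a were named by Spearman's rho over the 16 libraries of P after subtracting group means, among 42 named genes with a mean of at least 1. They were Ccl6, a chemokine of myeloid cells (0.92), Cd14, the co-receptor for lipopolysaccharide (0.91), and Orm2 (0.89). Without the subtraction rho was lower, at 0.66 for Ccl6, 0.45 for Cd14 and 0.74 for Orm2, so the likeness depends on the centring. For the mitotic members rho after the subtraction was lower than for Cdkn1a. Among 63 genes of T, Ube2c was most like the monocyte chemokine gene Ccl2 (0.73) and Clstn3 (0.71). Cdc20 was most like Mvd, an enzyme of the mevalonate pathway (0.64), Gdf15 (0.60) and Hmgcs1, which acts early in that pathway (0.60). Kif23 in T was most like Mvd (0.50), Ly6d (0.43) and Hmgcs1 (0.39), and in P, among 43 genes, Igkv3-2 (0.45), Siglece (0.39) and Lyz2 (0.30). Without the subtraction rho was 0.73 and 0.74 for the genes named with Ube2c, within the range of Cdkn1a. It was then 0.45 to 0.60 for Cdc20, and for Kif23 0.38 to 0.61 in T and 0.36 to 0.51 in P. All these values are the highest of many and describe these libraries.

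Kif23 in experiment P did not differ beyond its spread either. It ranged in the vehicle group from 0.04 through a median of 0.12 to 0.65, with a mean of 0.218 ± 0.219 (SD, n = 8). In the SXB group it ranged from 0 through a median of 0.13 to 0.45, with a mean of 0.135 ± 0.146 (n = 8). The medians were close and the groups overlapped, with vehicle libraries 36, 33 and 22 and SXB library 25 high. The means differed 1.61-fold, or 2.42-fold without library 25, and the log2 difference was -0.09 (SE 0.10, limma adjusted p = 0.399). Without vehicle libraries 33, 34 and 35 it was -0.13 (SE 0.12, limma adjusted p = 0.367). The authors' deposited table gives a log2 fold change of -1.56 with an adjusted p of 1, while the listed values gave -0.69 for the log2 ratio of means.

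Kif23 is the member listed in both tables, and its treatment differences could be set against each other. The difference was -0.22 in T and -0.09 in P on the log2 scale. The interaction of treatment and experiment, P minus T, was 0.13 (SE 0.21, approximate 95% interval -0.27 to 0.54, limma adjusted p = 0.669 over the 15 genes in both tables). The interval leaves room for a difference in either direction that exceeds the treatment difference in either experiment.

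**Figure D4:**
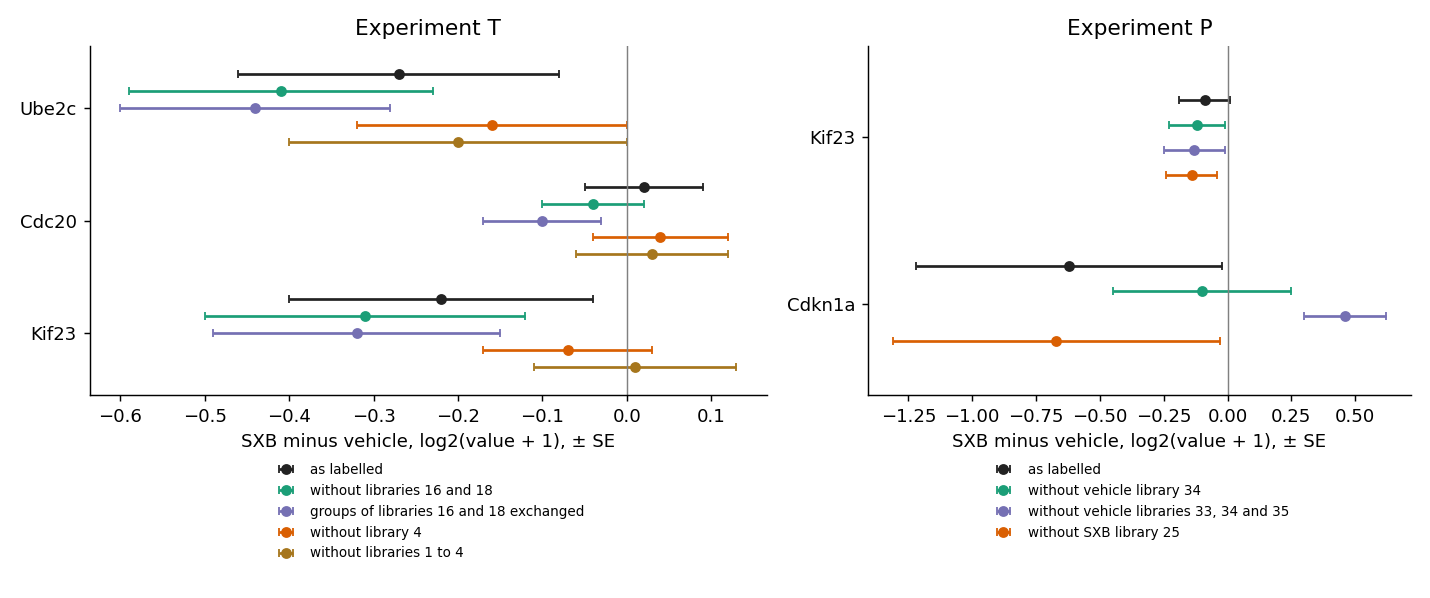
Differences of SXB minus vehicle on the log2(value + 1) scale with limma standard errors for each member in experiments T and P, under the labelled groups and with libraries left out or exchanged. Cdkn1a moves from -0.62 to 0.46 when vehicle libraries 33, 34 and 35 are left out, Kif23 in T from -0.22 to -0.07 without library 4, and Ube2c stays below 0 in each arrangement drawn.

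Of the 71 mitotic genes, table P holds 2, Kif23 and Ndc80, a kinetochore protein that holds microtubule ends. Ndc80 was listed at 0 in 2 vehicle and 6 SXB libraries, reached 0.12 in vehicle library 34, and had a highest SXB value of 0.03. Its log2 difference was -0.06 (SE 0.03, limma adjusted p = 0.0581) and did not pass. The exact permutation test gave it an adjusted p of 0.0403, and passed 113 of 242 genes (46.7%). The limma adjusted p of Ndc80 was 0.0398 with a pseudocount of 0.1, 0.0261 with 0.01 and 0.0334 with the trended and robust fit. These settings passed 110, 130 and 117 of 242 genes. Ndc80 also passed in 2 of 16 fits that left out 1 library. Without vehicle libraries 33, 34 and 35 its limma adjusted p was 0.185. Such values lie within a few units of the rounding.

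Of the 32 targets of p53, table P holds Cdkn1a and Pmaip1, which encodes the pro-apoptotic BH3-only protein Noxa, and Pmaip1 was lower with SXB. It ranged from 0.07 through a median of 0.135 to 0.23 with vehicle and from 0 through a median of 0.05 to 0.09 with SXB, and each of the 8 SXB values was under the vehicle median, with a slight overlap of the groups. The means were 0.143 ± 0.0526 and 0.0463 ± 0.0311 (SD, n = 8 each), 3.08-fold lower with SXB, and the log2 difference was -0.13 (SE 0.03, limma adjusted p = 0.00579). Under the labels 94 of 242 genes passed limma (38.8%). Pmaip1 passed in all 16 fits that left out 1 library, in which 68 to 101 genes passed. Without libraries 33, 34 and 35 it passed too (-0.14, SE 0.03, limma adjusted p = 0.0227), where 54 of 242 genes did (22.3%). Its adjusted p in the authors' deposited table is 0.0738. The SXB values, from 0 to 0.09, are close to the rounding of 0.01. Pmaip1 therefore passed and Cdkn1a did not, with high Cdkn1a in vehicle libraries 33, 34 and 35 and Pmaip1 in these libraries within the range of the other vehicle libraries; the difference between these genes was not tested.

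Markers of other cell types moved with treatment in P, beside the values of Kif23, Ndc80, Pmaip1 and Cdkn1a. The 11 listed genes of 21 macrophage markers summed to between 65.8 and 161.2 with vehicle and 42.9 and 64.1 with SXB, without overlap. All 11 were lower, 9 passed, and none was at 0 in any library. Of all 242 genes of P, 201 were lower with SXB, and 7 had groups without overlap (2.89%). Among them 94 passed (38.8%), 84 of these lower with SXB (34.7%). The 3 listed genes of 13 lymphocyte and plasma cell markers summed to between 16.2 and 96.5 with vehicle and 6.63 and 21.4 with SXB, with 2 passing. Mesothelial markers went the other way: the 3 listed of 6 were all higher with SXB and 2 passed, with sums of 0.04 to 0.34 with vehicle and 0.16 to 0.67 with SXB. The 1 listed cholangiocyte marker, Krt7, lay between 0.01 and 0.15 with vehicle and 0.02 and 0.17 with SXB and did not pass. In T the 2 listed macrophage markers summed to between 0.27 and 3.88 with vehicle and 0.11 and 0.91 with SXB. The 2 listed lymphocyte markers summed to 0.22 to 1.8 and 0.31 to 1.14. Both listed mesothelial markers were lower with SXB in T, unlike in P, with sums of 0.14 to 0.76 and 0 to 0.42. Timp1, of the stellate cell and fibroblast list, lay at 0.07 to 1.26 and 0 to 0.45. Serpina1e was higher with SXB, with medians of 2551 and 8432. None of these passed in T, where 0 of 306 genes did. Their part in the values of the members was not tested.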

How the data were processed

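RNA from liver was isolated with TRIzol and read as paired ends on an Illumina HiSeq instrument, per the labels' protocols. Tools named in the submitters' processing notes, without versions or roles, are fastp, DESeq2, RSEM, StringTie and HISAT2, and the build named is GRCm38. The library columns hold a signal that the authors deposited, a normalised expression value per gene; no source used here says whether it is TPM or FPKM. The comparison columns, whose header is shifted against their content, hold a fold change (a ratio), its log2 and an unadjusted and an adjusted p-value that the authors deposited, as read from the values.

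Groups follow the treatment labels. Two-sided tests were made on log2(value + 1) over each whole table with limma (version 3.58.1; R version 4.3.3), with Benjamini-Hochberg adjustment and a threshold of 0.05. This scale understates changes of low genes. Folds are ratios of arithmetic means. Exact permutation tests used all assignments of the libraries, 12870 for 16 libraries and 3432 for the 14 of T without libraries 16 and 18. Permutation p-values of correlations used 100000 resamples. The values are no counts and were given no count model. Alternatives were pseudocounts of 0.1 and 0.01, a trended and robust limma fit, a filter that kept genes whose mean reached 1, and omission or exchange of libraries. The scripts were tested on simulated data. No library was a duplicate, with a Spearman's rho between any pair of 0.45 to 0.86 in T and of 0.52 to 0.87 in P.

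The members, lists, naming rule and tests were chosen with earlier results of these data known. Named genes are the members, the listed genes of mitosis, DNA replication, G1 and p53 lists, and the 3 genes most like each member, of which 1 is not reported here; other genes stand beside a member. Gene positions are from GENCODE (GRCm38), which matched 305 of 306 identifiers in T and 242 of 242 in P, and promoter sequences from RefSeq (GRCm38.p6), which held all 4 members.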

Additional observations from a re-analysis of the deposited data

Results flagged for a closer look

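In each group of 8 libraries, the gap of the farthest library to its neighbour was compared with the range of the group, for the members and the list genes. The gap exceeded Dixon's critical value in 7 of 22 groups tested. Chance gives about 1 in 20 where values are normally distributed. The gaps were taken on values that were not log-transformed, these genes were selected in part for large differences, and many values are near 0. The number of groups flagged can therefore not be set against that rate. Vehicle library 34 of P held 39.43 of Cdkn1a, with the next at 6.03. Vehicle library 4 of T held 1.82 of Kif23, with the next at 0.57. SXB library 25 of P held 0.45 of Kif23, with the next at 0.17. SXB library 18 of T, the library listed among the vehicle columns, held 38.91 of Gdf15, with the next at 14.24. Pbk was 0.31 in vehicle library 10 and 0.23 in SXB library 12 of T, each with the next at 0.1. Ndc80 was 0.03 in SXB library 20 of P, with the next at 0.01.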

How the results depend on the processing

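Over 160 alternatives for the 5 member results, 138 kept direction and side of the threshold, 21 changed sign and 1 passed. Ube2c stayed lower in all of them, lay between -0.37 and -0.16 when 1 of the 16 libraries was left out, and between -0.52 and -0.29 when 1 of the 14 other than libraries 16 and 18 was left out as well as these, passing only without libraries 14, 16 and 18. Cdc20 was -0.043 without libraries 16 and 18, -0.10 with their groups exchanged, -0.074 without libraries 1 to 4, 16 and 18, -0.024 to 0.052 when 1 of the 16 was left out and -0.075 to -0.018 when 1 of the 14 was. Kif23 in T was 0.0062 without libraries 1 to 4. Cdkn1a was 0.46 without libraries 33, 34 and 35. E2f7 was -0.028 with libraries 1 to 4 as a term, -0.039 to 0.043 when 1 of the 16 was left out and -0.042 to 0.047 when 1 of the 14 was. The cause of these changes was not tested. The interaction of Kif23 kept its direction and did not pass in 4 alternatives (0.09 to 0.31). In T the number of genes passing rose from 0 to 2 with a pseudocount of 0.01, 56 without libraries 16 and 18, 90 with their groups exchanged and 4 without libraries 1 to 4, 16 and 18; it was 0 when 1 of the 16 libraries was left out and 3 (without library 2) to 76 (without library 14) when 1 of the 14 was. In P it was 94, 26 with a mean of at least 1 (fewer genes tested), 54 without libraries 33, 34 and 35, and 68 to 101 when 1 library was left out. Omissions from the 14 libraries, and that of libraries 1 to 4 with 16 and 18, were chosen after seeing the data. The filter on the mean removed Ube2c, Cdc20 and Kif23, so it gave no value for them. No paired analysis was possible because library numbers are not shared between groups. Rounding to 0.01 limits Kif23, Cdc20, Pbk, Ndc80 and Pmaip1.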
